A study of Saccharomyces cerevisiae with 72 samples.

Results

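Budding yeast depleted of Pph3 (strain C, pph3-AID) were compared with yeast that kept PPH3 (strain A), both with wild-type SLD3, through 1 round of DNA replication. The comparison used every replication timing library of these strains taken after release, 11 of strain C and 11 of strain A. These make 22 of the 72 samples of the series. The samples were taken at 15, 20, 25, 30, 35, 40, 45, 50, 60, 70 and 80 minutes after release from G1, with 1 library per strain and minute. Strain C carried PPH3-AID::HphMx, and strain A had an untagged PPH3. Otherwise both strains had one genotype in the W303 background: MATa, with swe1delta::TRP1, with cse4delta::NatMX covered by leu2::CSE4-HA6::LEU2, with CDC55-AID::KanMx, with SLD3-13myc::KanMx, and with osTir1, the plant F-box protein that auxin binds, expressed from the GPD1 promoter (his3::PGPD1-osTir1::HIS3). Cells were held in G1 by alpha factor, received 1 mM of the auxin IAA during a 30 minute shift to 37 °C, and were released into YPAD that still held IAA. Cdc55, which directs PP2A to its substrates, carried the degron in both strains, so the comparison shows Pph3 depletion only where Cdc55 was a degron target as well. The DNA tables hold no measure of how much Pph3 or Cdc55 protein was left. In addition, strains B and D of the series, which carry the sld3-R(2A) allele, served here only to place bins in the timing programme without using strain C or A. Strain D is depleted of Pph3 as well, so this timing reference is not free of the change under study.

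Replication starts at origins, where the Mcm helicase is loaded in G1 and is switched on in S phase by the kinases CDK and DDK with the help of Sld3, Sld7, Cdc45, Sld2 and Dpb11. Origins do not fire together: those near centromeres fire early and many near chromosome ends fire late, and limited amounts of Sld3 and its partners are known to set how many fire at a time. Pph3 is the catalytic subunit of PP4, a phosphatase that with Psy2 removes phosphates from the checkpoint kinase Rad53 and from histone H2A. Rad53 in turn is known to phosphorylate Sld3 and Dbf4 and to hold back late origins when forks stall.

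Each table lists a ratio for bins of 1 kb, the amount of DNA in S phase over that in G1 of the same strain, scaled so that DNA before replication lies near 1 and DNA after it near 2. Ratios were also divided by the median of their own library, which removes the authors' scale factor and leaves the relative amount of each bin, here called the scaled ratio. Replication time is the minute at which the ratio of a bin, averaged over 5 kb and made monotone in time, crossed 1.5, and the delay is replication time in C minus that in A. With 1 library per strain and minute there is no replicate and no test between strains. Errors along the genome are the SD over the 16 chromosome medians or quartiles over bins. In 1092 windows of 10 kb, 5 bins and the other 5 were timed separately. Their differences gave the delay of 5 bins an SD of 1.06 minutes, which is a measuring error within these libraries and not the spread between cultures. The tables list no read counts, so the depth is unknown. The noise of single bins in the scaled ratio lay between 0.0523 and 0.0693 over the 22 libraries.

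Pph3-depleted cells replicated nearly all of their genome later, and by the authors' scale factor the lag was larger late in S phase than early. The factor is read here as the bulk DNA content of a library, though how it was set is not given. It was 1.218 in C and 1.251 in A at 25 minutes, and 1.512 in C and 1.634 in A at 35 minutes. At 45 minutes it was 1.829 in C and 1.901 in A. It had gone 25% of the way between 1 and 2 at 26.2 minutes in C and 25.0 minutes in A, a lag of 1.22 minutes. It had gone 75% of the way at 42.5 minutes in C and 38.5 minutes in A, a lag of 4.03 minutes. By 60 minutes the factor was 1.988 in C and 1.979 in A, and at 70 minutes it was 2 in both. Whether it was fixed at 2 there is not given, so these values do not show how complete replication was.

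Bin by bin, the quartiles of replication time lay at 31.6 and 42.2 minutes in C and at 28.2 and 37.1 minutes in A. The late quartiles lay further apart than the early ones. The delay had a median of 3.51 minutes (SD over chromosomes 0.725, n = 16), with quartiles of 2.21 and 5.21 minutes and the 5th and 95th percentiles at 0.783 and 8.62 minutes. Replication was later in C in 11119 of 11260 bins, 98.7% of them, and later by at least 5 minutes in 3105 bins, 27.6%. In the 141 bins that were earlier in C, 9 bins were earlier in C by 2 minutes or more. The size of the delay rests on the authors' scale factors: with the factor of each minute replaced by the mean of both strains, which takes out any bulk lag, the median delay was 1.91 minutes.

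The shape of the profile gives a lag without the factor. The library of C at 25 minutes was nearest, by least squares over bins, to the profile of A interpolated at 22.0 minutes, that of C at 30 minutes to A at 27.3 minutes, and that of C at 35 minutes to A at 32.4 minutes. Later on, C at 40 minutes was nearest to A at 37.2 minutes, C at 45 minutes to A at 39.5 minutes, and C at 50 minutes to A at 46.9 minutes. The lags from 25 to 50 minutes were 3.04, 2.69, 2.63, 2.78, 5.45 and 3.14 minutes, with a median of 2.91 minutes (SD over chromosomes 0.353). This measure thus showed no steady growth of the lag with time. Shifting the time axis did not bring the profiles together in full. At 30 minutes the root mean square difference of the 5-kb scaled ratio was 0.103 at the same minute and 0.0718 after matching, and at 45 minutes it was 0.0928 and 0.0696. After matching, the median difference left in late DNA, C minus A, was 0.0207 at 25 minutes, 0.0312 at 30, 0.00807 at 35, -0.0512 at 40, -0.0617 at 45 and -0.0158 at 50 minutes. Late DNA thus lay higher in C up to 35 minutes and lower from 40 minutes on.

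The difference between the strains came and went with S phase. A 5-kb mean of the scaled ratio that was lower or higher in C by more than 0.1 was found at 1.78% of 11260 bins at 15 minutes and 1.06% at 20 minutes, and again at 1.16%, 2.2% and 1.1% at 60, 70 and 80 minutes. At 25 minutes 2439 bins (21.7%) were lower in C and 606 (5.38%) higher. At 30 minutes 2695 bins (23.9%) were lower in C and 1442 (12.8%) higher, and the SD of single-bin differences was 0.128, against 0.0865 for noise alone. At 35 minutes the balance turned, with 118 bins (1.05%) lower in C and 1563 (13.9%) higher. This balance depends on the scale, since division by the library mean in place of the median gave 471 bins lower and 580 higher. At 40 minutes 921 bins (8.18%) were lower in C and 1951 (17.3%) higher. At 45 minutes 2300 bins (20.4%) were lower in C and 1182 (10.5%) higher, and at 50 minutes 571 bins (5.07%) were lower and 169 (1.5%) higher. At 80 minutes the SD was 0.0839, against 0.0837 for noise, and at 70 minutes it was 0.0920, against 0.0882. The larger counts thus lay between 25 and 50 minutes.

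Which DNA was lower in C changed over that span. Bins were put into an early, a middle and a late class of equal size by their mean replication time in B and D. These libraries lie outside the comparison, but D is depleted of Pph3 as C is. Early DNA in C had median scaled ratios of 0.958 at 25 minutes, 1.15 at 30, 1.27 at 35, 1.20 at 40 and 1.13 at 45 minutes. Early DNA in A had 1.08 at 25 minutes, 1.27 at 30, 1.23 at 35, 1.10 at 40 and 1.06 at 45 minutes. Early DNA was thus lower in C at 25 and 30 minutes and higher from 35 minutes on. At 25 minutes 2246 of its 3753 bins, 59.8%, were lower in C by more than 0.1, and at 40 minutes 1830 bins, 48.8%, were higher.

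Late DNA ran the other way and with a wider gap at the end. Its median scaled ratio in C was 1.05 at 25 minutes, 0.994 at 30, 0.880 at 35, 0.795 at 40, 0.803 at 45 and 0.924 at 50 minutes. Its median scaled ratio in A was 0.993 at 25 minutes, 0.909 at 30, 0.829 at 35, 0.872 at 40, 0.921 at 45 and 0.963 at 50 minutes. The lowest point was thus at 40 minutes in C and at 35 minutes in A. At 45 minutes 2164 of the 3754 late bins, 57.6%, were lower in C by more than 0.1 and 1 bin was higher. On the deposited scale late DNA in C had ratios of 1.28 at 25 minutes, 1.31 at 30, 1.28 at 35 and 1.34 at 40 minutes, and late DNA in A had 1.22, 1.248, 1.34 and 1.6 at those minutes. Late DNA in C was therefore still near its 25 minute ratio at 40 minutes, when late DNA in A had passed 1.5.

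**Figure D1:**
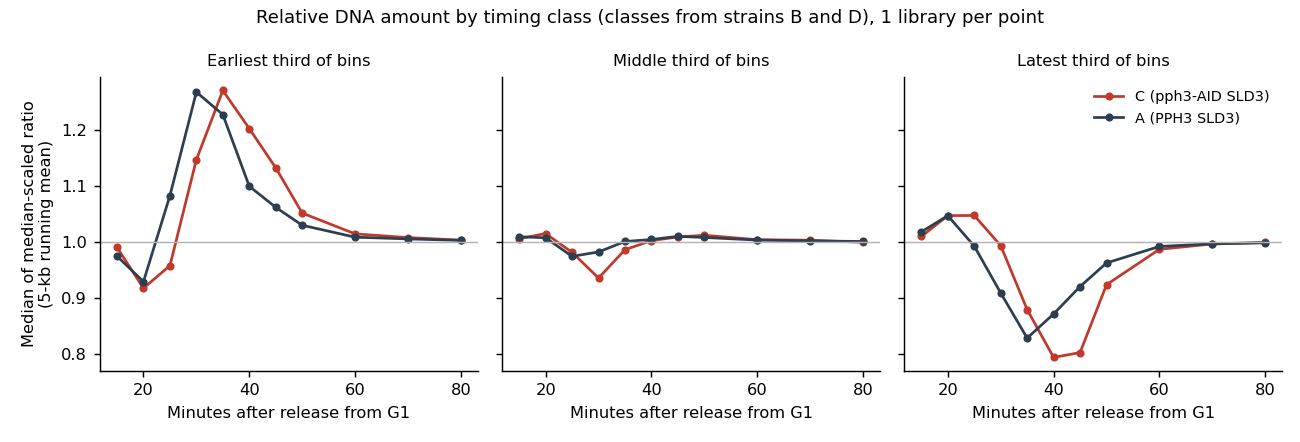
Median scaled ratio (5-kb running mean, no unit) against minutes after release in the early, middle and late class of bins, strain C in red and strain A in dark blue, 1 library per point. Early DNA peaks at 1.27 in C at 35 minutes and at 1.27 in A at 30 minutes, and late DNA is lowest at 0.795 in C at 40 minutes and at 0.829 in A at 35 minutes.

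In minutes, early DNA was delayed least and late DNA most. The early class replicated at 29.8 minutes in C and 27.1 minutes in A, with a median delay of 2.47 minutes (quartiles 1.62 and 3.38). The middle class replicated at 36.3 minutes in C and 32.8 minutes in A, with a median delay of 3.30 minutes (quartiles 2.10 and 4.46). The late class replicated at 44.8 minutes in C and 38.0 minutes in A, with a median delay of 5.82 minutes (quartiles 4.21 and 7.63). A delay of at least 5 minutes was found in 3.65% of the early bins, 15.8% of the middle bins and 63.3% of the late bins. The late class exceeded the early class by 3.36 minutes (SD over chromosomes 1.04), and by 2.12 minutes with scale factors common to both strains. Strain D, which shares the Pph3 depletion with C, helped to set these classes. How much of the gap comes from that was not tested. The 327 bins within 10 kb of a centromere, which are known to replicate early, were at 27.7 minutes in C and 25.5 minutes in A, a median delay of 2.20 minutes (quartiles 1.47 and 2.81). There the scaled ratio was 1.02 in C and 1.18 in A at 25 minutes, 1.29 in C and 1.39 in A at 30 minutes, and 1.24 in C and 1.12 in A at 40 minutes. The 854 timed bins within 30 kb of a chromosome end were at 39.5 minutes in C and 35.7 minutes in A, a median delay of 3.82 minutes (quartiles 2.37 and 5.70). Ends were therefore delayed less than the late class as a whole, but they were also earlier in B and D, at a median of 44.2 minutes against 49.5.

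**Figure D2:**
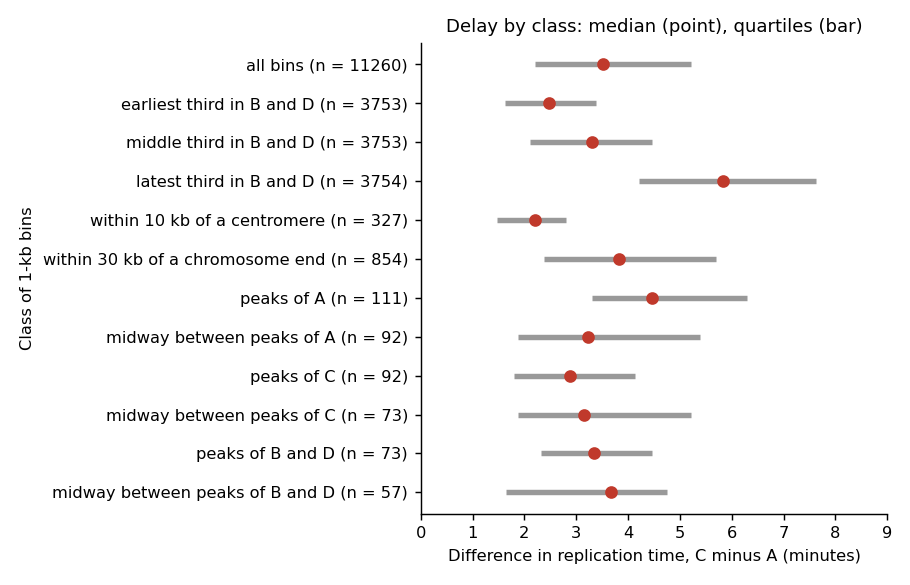
Difference in replication time, C minus A, in minutes on the horizontal axis for classes of 1-kb bins, with the median over bins as a point and the quartiles as a bar. Late bins have a median of 5.82 minutes, early bins 2.47 minutes and centromere bins 2.20 minutes, and the peaks of A, at 4.47 minutes, lie above the peaks called in B and D, at 3.35 minutes.

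All 16 chromosomes were later in C, and they differed among themselves by more than 2 minutes. The largest median delays were on chromosome XIV (4.86 minutes, quartiles 3.03 and 7.07), chromosome IV (4.6 minutes, quartiles 2.74 and 6.70) and chromosome XVI (4.15 minutes, quartiles 3.00 and 5.26). Chromosome XIV replicated at a median of 41.0 minutes in C and 35.3 minutes in A, and chromosome IV at 41.4 minutes in C and 35.8 minutes in A. The smallest were on chromosome X (2.62 minutes, quartiles 1.7 and 3.93), chromosome III (2.65 minutes, quartiles 1.62 and 3.94) and chromosome VI (2.69 minutes, quartiles 1.48 and 4.74). Chromosome X replicated at 33.4 minutes in C and 30.3 minutes in A, and chromosome III at 32.0 minutes in C and 28.5 minutes in A. The share of bins delayed by at least 5 minutes was 48.5% on chromosome XIV and 44.8% on chromosome IV, but 11.2% on chromosome X and 12.2% on chromosome III. The quartiles of every named pair overlapped. The median delay of a chromosome went with its mean replication time in B and D (Pearson r = 0.875, Spearman rho = 0.853, n = 16 chromosomes). The 16 points share the same cultures and libraries, so this is a description of these libraries. The times in B and D include a Pph3-depleted strain, so they are not independent of the depletion. The correlation with chromosome length was lower (Pearson r = 0.547, Spearman rho = 0.494).

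**Figure D3:**
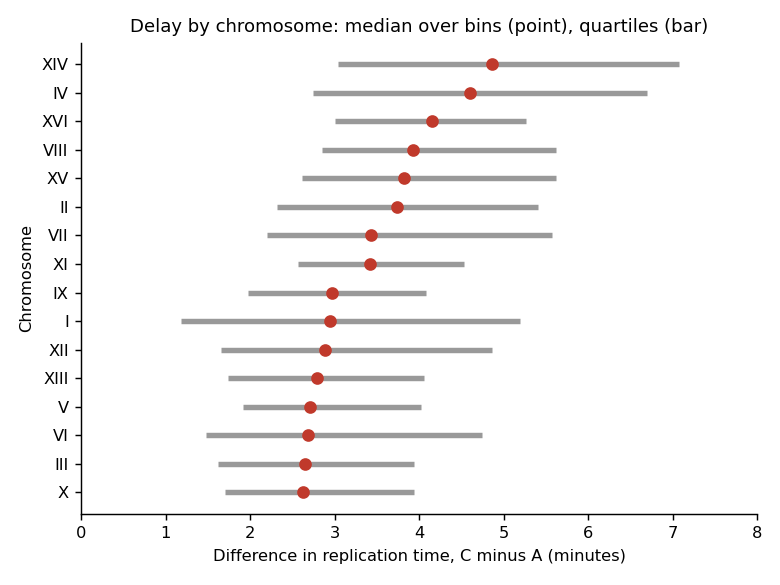
Difference in replication time, C minus A, in minutes for each of the 16 chromosomes, with the median over 1-kb bins as a point and the quartiles as a bar. The medians run between 2.62 minutes on chromosome X and 4.86 minutes on chromosome XIV.

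Chromosomes also differed in when they were behind. On chromosome III the median difference in scaled ratio, C minus A, was -0.0691 at 25 minutes and 0.0735 at 40 minutes. Chromosome V was at -0.0776 at 30 minutes and at 0.0591 at 40 minutes. Both held less DNA in C early on and more of it, relative to the rest of the genome, 10 to 15 minutes later. Chromosome IV had 0.0245 at 30 minutes and -0.0681 at 45 minutes, and chromosome XIV had 0.0268 at 30 minutes and -0.0729 at 45 minutes. The median over all bins was -0.0233 at 30 minutes and -0.00428 at 45 minutes. It was taken over 5-kb means, and the chromosome values over single bins. Beside it, chromosomes IV and XIV were relatively higher in C at 30 minutes and lower at 45. At 35 minutes all 16 chromosomes were higher in C, by 0.00287 to 0.0548, with 0.0308 over the 5-kb means of all bins. The sign at that minute thus sets no chromosome apart. At 15, 20, 60, 70 and 80 minutes no chromosome differed by more than 0.022. On the deposited scale all 16 chromosomes were lower in C at 35 minutes, with median differences between -0.164 and -0.084, and at 40 minutes, with -0.198 to -0.0425. At 45 minutes chromosome III held more DNA in C, with a median ratio of 2.08 in C and 1.97 in A, while chromosome XIV had 1.66 in C and 1.86 in A. A ratio above 2 exceeds full replication, so the scale is approximate there.

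**Figure D4:**
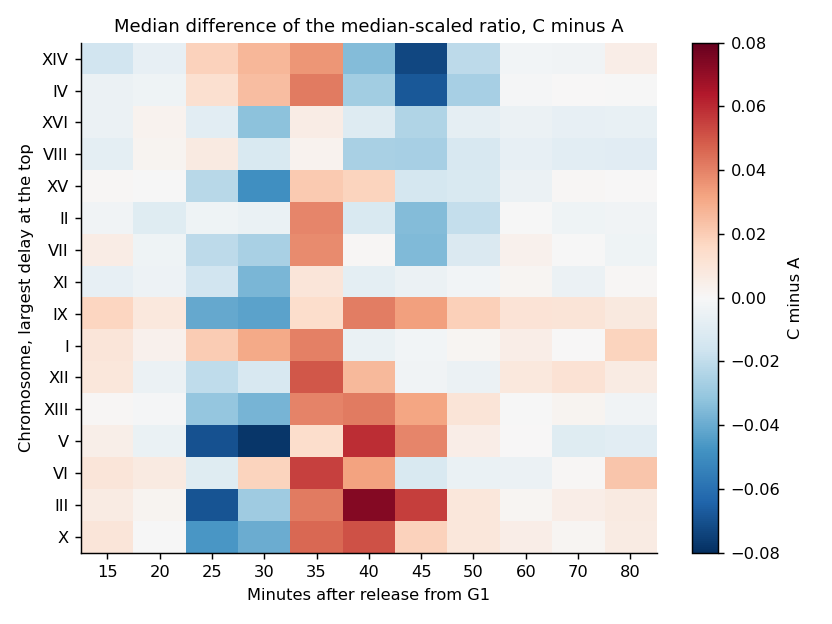
Median difference of the scaled ratio, C minus A, by chromosome (down, largest delay at the top) and minute after release (across), blue where C is lower and red where C is higher. Chromosomes III and V are lower in C at 25 and 30 minutes and higher at 40, chromosomes IV and XIV are higher at 30 and lower at 45 minutes, and at 35 minutes all 16 chromosomes are higher.

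Peaks are local maxima of the scaled profile, bins that held more DNA than their surroundings at the minute of the call. At peaks of A a part of that height was present in A at 15 and 80 minutes too, as given below. How much of the height comes from earlier replication was not tested. In A, 111 peaks were called in the 35 minute library, and 92 bins lay midway between neighbouring peaks at least 20 kb apart. The weakest peak kept had a prominence of 0.195 and the strongest one left out had 0.193, against a limit of 0.194. At the peaks of A the median scaled ratio in C was 1.05 at 25 minutes, 1.08 at 30, 1.20 at 35 and 1.12 at 40 minutes. In A it was 1.12 at 25 minutes, 1.22 at 30, 1.22 at 35 and 1.09 at 40 minutes. At 25 minutes 62 of the 111 peaks, 55.9%, were lower in C by more than 0.1. The shares given above were 21.7% of all bins and 59.8% of the early class. At 30 minutes 57 peaks, 51.4%, were lower, against 23.9% of all bins and 47.6% of the early class. These shares therefore do not set the peaks of A apart from early DNA. Midway bins in C had 0.986 at 25 minutes, 0.934 at 30, 0.905 at 35 and 0.905 at 40 minutes, and in A they had 0.976, 0.911, 0.856 and 0.933 at those minutes. The troughs between peaks were therefore shallower in C up to 35 minutes and deeper at 40.

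Peaks of A replicated at a median of 31.5 minutes in C and 26.8 minutes in A, with a delay of 4.47 minutes (quartiles 3.30 and 6.30), and 46 of 111 peaks (41.4%) were later by at least 5 minutes, against 27.6% of all bins. Midway bins replicated at 39.4 minutes in C and 36.8 minutes in A, with a delay of 3.23 minutes (quartiles 1.88 and 5.39), and 27 of 92 (29.3%) were later by at least 5 minutes. Midway bins were thus delayed 1.23 minutes less than peaks (SD over chromosomes 1.39). The 9068 timed bins over 10 kb from any peak of A had a median delay of 3.43 minutes. The peaks came from a library of A, and this order turned with their source. Peaks of the mean of B and D, 73 of them, replicated at 30.0 minutes in C and 26.4 minutes in A, a delay of 3.35 minutes (quartiles 2.32 and 4.47), and the 57 bins midway between them had 3.68 minutes. Peaks called in C, 92 of them, had a delay of 2.88 minutes, and the 73 bins midway between those had 3.14 minutes. A delay of at least 5 minutes was found at 13 of the 73 peaks of B and D (17.8%) and at 9 of the 92 peaks of C (9.78%), both shares below the 27.6% of all bins.

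The mean profile around the peaks shows a feature that goes with the strain in which they were called. Around peaks of A, the 5 bins centred on the peak stood above the bins 3 to 5 kb away by 0.0111 in C and 0.0837 in A at 35 minutes, by 0.0096 in C and 0.0377 in A at 15 minutes and by 0.004 in C and 0.034 in A at 80 minutes. Around peaks of C the step was 0.0789 in C and 0.0105 in A at 35 minutes, 0.0367 in C and 0.00899 in A at 15 minutes, and 0.0414 in C and 0.00362 in A at 80 minutes. Around peaks of B and D it was 0.00664 in C and 0.00566 in A at 35 minutes. The step has the width of the 5-kb running mean, it was present in libraries taken before and after most of S phase, and all libraries of a strain share the G1 library as denominator. Its part in the delay at peaks of A was not tested. With each library divided by the late profile of its own strain (60, 70 and 80 minutes), a setting chosen after the data were seen, the delay was 4.22 minutes at peaks of A and 3.51 minutes midway.

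**Figure D5:**
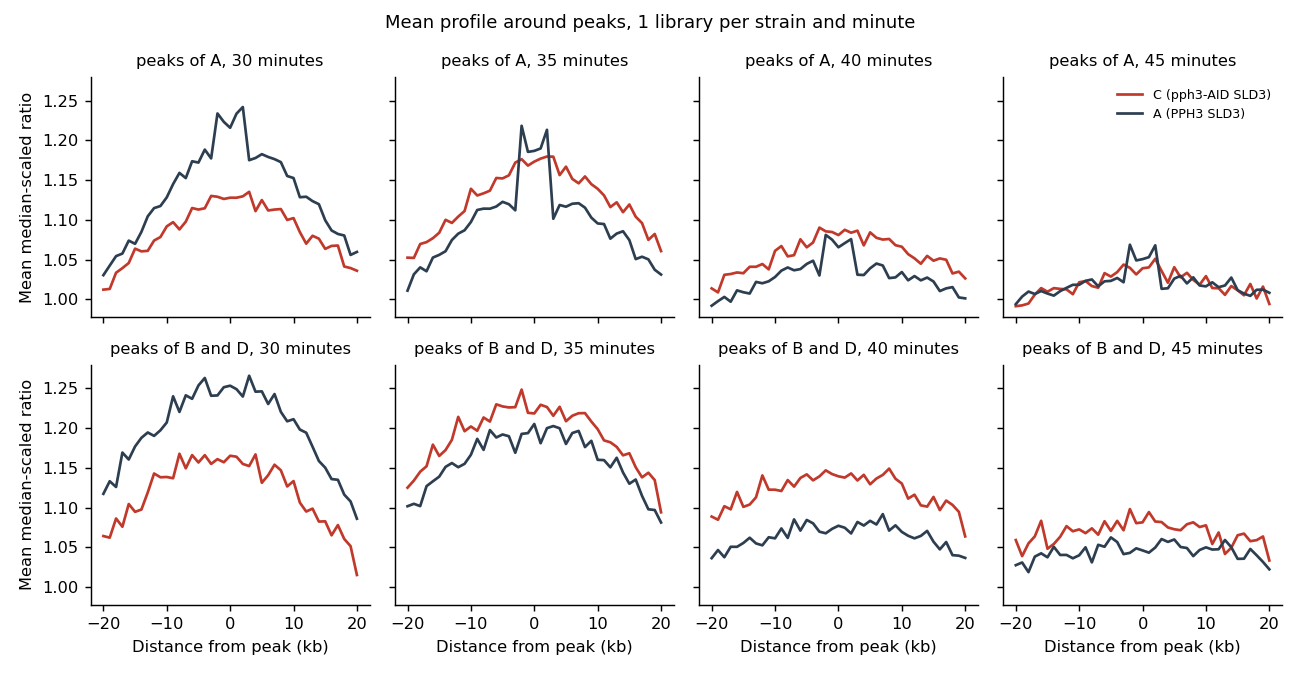
Mean scaled ratio against distance in kb from peaks called in A (upper panels) and in B and D (lower panels) at 30, 35, 40 and 45 minutes, strain C in red and strain A in dark blue. Around peaks of A, strain A has a step 5 kb wide that strain C lacks (0.0111 in C and 0.0837 in A at 35 minutes), and around peaks of B and D the steps are 0.00664 in C and 0.00566 in A.

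Around peaks of B and D, which neither strain supplied, the contrast between peaks and the troughs between them reached a similar height in both strains and came later in C. The scaled ratio at these peaks exceeded that midway by 0.0447 in C and 0.184 in A at 25 minutes, by 0.214 in C and 0.341 in A at 30 minutes, by 0.335 in C and 0.290 in A at 35 minutes, by 0.240 in C and 0.131 in A at 40 minutes, and by 0.136 in C and 0.0718 in A at 45 minutes. The largest contrast was thus 0.335 in C, at 35 minutes, and 0.341 in A, at 30 minutes. Replication time grew with distance from these peaks in both strains. It was 30.0 minutes in C and 26.4 minutes in A at the peak, 31.6 minutes in C and 28.3 minutes in A at 11 to 15 kb, and 34.6 minutes in C and 31.9 minutes in A at 21 to 30 kb. The delay was 3.35, 3.13 and 2.70 minutes along that path, each within the quartiles of the delay at the peaks.

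Among peaks of A, those that replicate late in B and D had the longest delays. All of them were chosen as high in a library of A, which favours a later time in C, and D shares the Pph3 depletion with C. These delays are therefore a description. Ranked by their time in B and D, the 37 earliest peaks replicated at 27.7 minutes in C and 24.6 minutes in A, a median delay of 3.12 minutes (range 0.757 to 5.85). The middle 37 replicated at 31.5 minutes in C and 26.8 minutes in A, a delay of 4.52 minutes (range 2.21 to 6.90). The 37 latest replicated at 40.3 minutes in C and 31.5 minutes in A, a delay of 8.97 minutes (range 1.83 to 14.5), against 5.82 minutes over the whole late class. At 40 minutes the scaled ratio of the latest 37 was 0.873 in C and 0.989 in A, while that of the earliest 37 was 1.24 in C and 1.15 in A. A peak of C lay within 5 kb of 16 of the earliest, 20 of the middle and 10 of the latest 37. In all, 46 of the 111 peaks of A (41.4%) had a peak of C within 5 kb, which is 50.0% of the 92 peaks of C. Of all bins, 8.57% lay that near to a peak of C. The delay was 4.36 minutes at the shared peaks and 4.85 minutes at the 65 others, whose median prominence in A was lower (0.325 against 0.433 for shared peaks).

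Single peaks show the range, with coordinates on sacCer3 and genes from the RefSeq annotation of R64. The 5 peaks of A with the smallest delay included 4 early ones. On chromosome II, 266001 to 267000, at GRX7, a glutaredoxin of the secretory pathway, replication came at 25.1 minutes in C and 24.3 minutes in A, a delay of 0.757 minutes. There the scaled ratio was 1.22 in C and 1.27 in A at 25 minutes, 1.46 in C and 1.44 in A at 30 minutes, and 1.34 in C and 1.17 in A at 40 minutes. The others were at NOP9, a factor of ribosome assembly (chromosome X, 418001 to 419000, delay 1.39 minutes), at SEN34, a subunit of the tRNA splicing endonuclease (chromosome I, 159001 to 160000, 1.77 minutes), at RPC19, a subunit shared by RNA polymerases I and III (chromosome XIV, 412001 to 413000, 1.83 minutes), and at NCE103, carbonic anhydrase (chromosome XIV, 560001 to 561000, 1.92 minutes). The peak at RPC19 was later than the other 4, at 34.4 minutes in C and 32.6 minutes in A. It lay late in B and D, at a mean of 48.4 minutes, but not in C or A, where all bins had medians of 36.3 and 32.8 minutes. The first of these delays lies within the measuring error of 1.06 minutes.

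The 5 peaks of A with the largest delay were all late in C, at 44.0 to 46.9 minutes, and in B and D, at 48.5 to 53.4 minutes. In A they were at 30.5 to 34.1 minutes, around the median of 32.8 minutes over all bins. The nearest peak of C lay 48 to 118 kb away. The largest was on chromosome XV, 682001 to 683000, at GSP2, a homologue of Ran, with 46.6 minutes in C and 32.1 minutes in A, a delay of 14.5 minutes. Its scaled ratio was 1.00 in C and 1.05 in A at 30 minutes, 0.957 in C and 0.977 in A at 35 minutes, 0.834 in C and 0.939 in A at 40 minutes, and 0.755 in C and 0.933 in A at 45 minutes. Between 30 and 45 minutes the relative amount of this bin thus went down in both strains, and further in C. At KEX1, a carboxypeptidase of the Golgi (chromosome VII, 112001 to 113000), the times were 45.8 minutes in C and 32.2 minutes in A, and the scaled ratio at 45 minutes was 0.741 in C and 0.954 in A. The other 3 were at SEI1, the yeast seipin (chromosome XII, 928001 to 929000, delay 13.5 minutes), at NUM1, a cortical anchor for dynein (chromosome IV, 757001 to 758000, 13.2 minutes), and at SMC6, a subunit of the Smc5/6 complex (chromosome XII, 887001 to 888000, 12.9 minutes). The prominence of these 5 in A was between 0.204 and 0.329, against a limit of 0.194 and a median of 0.325 over the peaks without a partner in C. Chosen as the extremes of 111, they carry the error of that choice.

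Of the bins midway between peaks of A, the largest delay was on chromosome IV, 704001 to 705000, at SWF1 and ARO1, of which ARO1 encodes a multifunctional enzyme of aromatic amino acid synthesis, with 44.6 minutes in C and 34.3 minutes in A. The next were at VID27 (chromosome XIV, 248001 to 249000, 9.01 minutes), at PDR5, a drug efflux pump (chromosome XV, 621001 to 622000, 8.76 minutes), at SCY1 (chromosome VII, 353001 to 354000, 8.62 minutes), and at HOS2, a histone deacetylase (chromosome VII, 140001 to 141000, 8.52 minutes). At PDR5 replication came at 47.5 minutes in C and 38.8 minutes in A. All 5 replicated after 43 minutes in B and D, where all bins had a median of 41.7 minutes. In A, the bin at SCY1 was at 30.3 minutes, before the median of 32.8 minutes over all bins. The peaks of A to either side of these bins lay 56 to 157 kb apart, and the bin at SWF1 and ARO1 lay 2 kb from a peak of C. Whether origins fire inside these gaps was not tested.

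Long delays formed stretches. A delay of at least 8 minutes was found in 807 bins, 7.17% of the timed genome, in 178 runs of neighbouring bins, of which 21 runs were 10 bins or longer. This limit was chosen after the values were seen. The longest run lay on chromosome II, 693001 to 715000, around VVS1, with 45.2 minutes in C and 34.4 minutes in A and a median delay of 9.94 minutes over 22 bins. The next were on chromosome IV, 737001 to 758000, around TAF12, a subunit of TFIID and SAGA, with 45.3 minutes in C and 34.1 minutes in A over 21 bins, on chromosome XII, 879001 to 899000, around IKI3, a subunit of the Elongator complex, with 47.0 minutes in C and 36.3 minutes in A over 20 bins, and on chromosome XV, 760001 to 779000, around WTM2, with 41.9 minutes in C and 31.3 minutes in A over 19 bins. Stretches that were earlier in C were shorter. The 4 runs of 10 bins or more had median differences between -0.591 and -0.3 minutes, smaller in size than the SD of 1.06 minutes for the delay of 5 bins. The error of a median over a longer run was not measured. The longest, on chromosome XII, 546001 to 563000, around ENT2, an epsin of endocytosis, was at 38.5 minutes in C and 39.4 minutes in A over 15 bins. Except on chromosome XIV, 254001 to 255000, the bins with larger differences in that direction lay within 30 kb of a chromosome end. They were 8 bins, earlier in C by at least 5 minutes. Of these, 3 neighbours on chromosome IV, 18001 to 21000, at YDL242W, were at 28.8 minutes in C and 39.6 minutes in A, and the lowest value of all, -15.4 minutes, was on chromosome XI, 658001 to 659000, with 29.1 minutes in C and 44.5 minutes in A.

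A few well known places were looked up after these values were seen. The bin of TRP1 on chromosome IV, 462001 to 463000, which is next to the classical origin ARS1 and whose sequence both strains also carried as the marker at SWE1, was at 29.6 minutes in C and 25.9 minutes in A, with a scaled ratio of 1.16 in C and 1.43 in A at 30 minutes and of 1.19 in C and 1.12 in A at 40 minutes. The bin of the histone H4 gene HHF1 on chromosome II, 255001 to 256000, was at 25.2 minutes in C and 23.7 minutes in A, and its scaled ratio at 30 minutes was 1.48 in C and 1.48 in A. These early loci lagged by 3.69 and 1.48 minutes. The genes of the study itself replicated later than these early loci. SLD3 was at 33.7 minutes in C and 28.7 minutes in A, before the medians of 36.3 and 32.8 minutes over all bins. After those medians came CDC55, at 40.7 minutes in C and 34.0 minutes in A, and PPH3, at 40.7 minutes in C and 38.0 minutes in A.

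Gene content was not used in choosing the peaks. Annotated genes covered 67.2% of the bases in peak bins of A, 68.0% in peak bins of B and D, 69.5% in peak bins of C, 77.0% in bins midway between peaks of A, 73.7% midway between peaks of B and D, and 74.1% in all bins. A tRNA gene overlapped 6.31% of the peak bins of A, 6.85% of those of B and D, 3.26% of those of C, 1.09% of the midway bins and 2.50% of all bins. Genes covered 76.1% of the bases in late DNA and 72.6% in early DNA.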

How the data were processed

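Cells of strains C and A were sampled at 11 minutes after release, and total DNA was sequenced. Per the file headers, each deposited ratio is the authors' reads per 1-kb bin in S phase over reads per bin in G1 of the same strain, times a scale factor. The mean ratio of a library differed from its factor by at most 0.00445. How the factor was set is not given in the sources used here. Per the submitters' processing notes, Bowtie2 2.2.6, SAMtools 1.7.2 and bedtools 2.26.0 were used with build sacCer3. The tables list no read counts, so the depth of each library is unknown and no counting interval was computed. Reads placed on S288C coordinates came from W303 cells.

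The tables hold 11303 to 11319 bins, and the 11277 bins listed in all 44 tables were used. Scaled ratios, 5-kb running means (at least 3 bins), replication time, midway bins and peaks (the highest value within 10 kb to either side, standing out by over 3 times the noise) were computed with Python 3.11.15, numpy 2.4.6, pandas 2.3.3 and scipy 1.17.1, and tested on simulated data. Centromeres were placed between the last left-arm and first right-arm gene of the RefSeq R64 table. Named are the 3 chromosomes with the smallest and largest delay, the 5 peaks of A with the smallest and largest delay and the 5 midway bins with the largest. Annotated origins were not used here. Members, lists and rules were chosen with earlier results of these data known. The 4 G1 samples entered only as denominators, strains B and D only for timing classes and peaks, and the 24 immunoprecipitation samples were not analysed here. Nothing in the labels says how many cultures the libraries came from.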

Additional observations from a re-analysis of the deposited data

Results flagged for a closer look

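On 9 of the 16 chromosomes the median C minus A difference of the scaled ratio lay beyond 0.022, the largest size seen at 15, 20, 60, 70 and 80 minutes, in one direction at one minute and in the other direction at another. The change between the lowest and the highest minute was 0.143 on chromosome III, 0.137 on V, 0.0977 on X, 0.0838 on IX and 0.0791 on XIII, where C was lower first and higher at 40 minutes. It was 0.11 on chromosome IV, 0.108 on XIV, 0.0737 on II and 0.0731 on VII, where C was higher at 35 minutes and lower at 45 minutes. With 1 library per strain and minute, the difference between chromosomes was not tested. At 35 minutes all 16 chromosomes were higher in C, with 0.0308 over the 5-kb means of all bins. On single bins, chromosomes II (0.0393), VII (0.0379), IV (0.0416) and XIV (0.0354) lay near that value. Their positive side at 35 minutes is thus shared by the genome on this scale. At 30 minutes chromosomes II and VII were at -0.00502 and -0.0258, and IV and XIV at 0.0245 and 0.0268.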

How the results depend on the processing

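No paired analysis was possible because each strain and minute has 1 library and the labels carry no replicate numbers. Apart from the settings that leave out a minute, 78 values moved by less than the SD over chromosomes (counts by less than 1.5 times), 15 moved by more and 3 reversed. For the midway minus peak gap (-1.23, SD 1.39) and the largest contrast at peaks of A (-0.0702, SD 0.0716) the SD exceeds the value. A large shrinkage of either thus counts as less than the SD. Among the settings so counted, the gap ran between -1.88 minutes (peaks of A over 25 to 40 minutes) and -0.316 minutes (peaks over 5 times the noise). Scale factors common to both strains gave a delay of 1.91 minutes over all bins, 2.89 at peaks of A and 1.59 midway, a late minus early gap of 2.12 minutes and an SD over chromosomes of 0.46. Peaks of B and D gave a delay of 3.35 minutes at peaks and a midway minus peak gap of 0.325 minutes, against -1.23 for peaks of A. Peaks of C gave 2.88 minutes and 0.261 minutes, and their largest contrast was 0.0289 higher in C, against -0.0702 at peaks of A. At 35 minutes the bins lower and higher in C were 471 and 580 with the library mean, 6728 and 174 with deposited ratios, 1080 and 2844 without a running mean, and 45 lower with a 9-kb mean. The bulk lag was 1.22 minutes at the lower of the other crossings tried. Leaving out 1 minute at a time from 20 to 70 gave 3.28 to 3.67 minutes over all bins, 4.19 to 4.78 at peaks, 3.01 to 3.72 midway, -1.50 to -1.01 for the midway minus peak gap, 2.75 to 3.70 for the late minus early gap and 2.78 to 3.04 for the profile lag. Peaks of C, peaks of the A and C mean, the late-profile denominator and the late minus early gap were chosen after the data were seen. Annotated origins in place of peaks were not run. Without replicates or read counts, neither the spread between cultures nor counting error can be given.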

Other observations

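At 20 minutes DNA that replicates early was the less abundant in every strain. The median scaled ratio of the early class minus that of the late class was -0.129 in C and -0.117 in A, and it was -0.072 in D and -0.0415 in B. Bins near centromeres had 0.880 in C and 0.901 in A. At 25 minutes the difference was still -0.0893 in C and had turned to 0.0898 in A. The cause was not tested. Without the 20 minute libraries the delay over all bins was 3.55 minutes and the late minus early gap 3.25 minutes.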
